A study of Mus musculus with 42 samples.

Results

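The genes described here are 9 genes of fatty acid synthesis: Acly, Me1, Acaca, Fasn, Elovl6, Scd1, Scd2, Srebf1 and Thrsp. They were picked by name, as every array probe whose gene name was one of these symbols, and make up 9 of the 21186 gene symbols and 15 of the 41174 probes on the array. In both tissues every one of the 9 had a group whose 3 arrays all read it well above background, so none was lost to the filter on dim genes.

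In de novo lipogenesis, acetyl-CoA is made in the cytosol from citrate by ATP citrate lyase (Acly) and carboxylated to malonyl-CoA by acetyl-CoA carboxylase (Acaca), and fatty acid synthase (Fasn) joins these units into palmitate at the cost of NADPH, part of which comes from malic enzyme (Me1). Elovl6 lengthens palmitate to stearate, and the stearoyl-CoA desaturases Scd1 and Scd2 put in the double bond that gives oleate and palmitoleate. Srebf1 encodes the sterol regulatory element binding protein that switches the pathway on when insulin is high, and Thrsp (Spot 14) is a small lipogenic protein induced by thyroid hormone and carbohydrate. The pathway is most active in liver and in white and brown fat, and low in skeletal muscle fibres.

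RNA of aorta and of skeletal muscle was hybridised from 3 male mice in each of 7 groups, 42 single-colour arrays in all. Group G was healthy C57BL/6 mice, group A was KK/Ay mice, which carry the yellow agouti allele and become obese and diabetic, and group C (diabetic macroangiopathy, the model) was KK/Ay mice on a high-fat diet with L-NAME, a blocker of nitric oxide synthase, at 0.2 mg/ml in the drinking water. Groups B, D, E and F were mice of that same model gavaged with SHENQI compound, its yangyinyiqi part, its huoxue part or rosiglitazone, a PPARγ agonist, while G, A and C received saline. Mice entered at 18 to 20 weeks of age. The diet with L-NAME was given for 8 weeks to establish the model, and gavage then lasted 8 weeks. Strain, and not only diabetes, separates A and C from G, because the healthy mice are not KK mice. The labels do not tell which aorta and which muscle came from the same mouse, so the tissues were treated as separate samples.

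Each value below is a log2 intensity, background corrected and quantile normalised over the 42 arrays, averaged over the probes of the gene. A gene is called when its Benjamini-Hochberg adjusted p value in limma, over all genes tested in that tissue, is under 0.05. The p values measure the spread between these samples, and with 3 arrays per group their number limits the precision. The share of probes well above background ran from 58.4% to 73.9% in aorta and from 49.7% to 65.7% in muscle. It was lowest, 49.7% to 53.0%, on slide 1, whose 4 arrays were the 3 huoxue muscles and rosiglitazone muscle replicate 1.

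Apart from a healthy aorta described below, the tissues carried the RNA that their labels name, and the aorta also carried that of fat and of striated muscle. All 6 skeletal muscle genes were detected on every muscle array. All 5 smooth muscle genes were detected on every array of both tissues, so detection alone does not separate them. Their mean lay between 9.66 and 14.63 in aorta and between 9.41 and 10.88 in muscle. The lowest aorta, at 9.66, was a healthy one and lay within the range of muscle. Every aorta array also read all 6 skeletal muscle genes, whose mean lay between 7.45 and 15.29 (16.3 to 16.8 on muscle arrays), and all 4 cardiac genes, whose mean lay between 6.08 and 12.32. The skeletal muscle mean of 15.29 was that of a diabetic aorta, above the smooth muscle means of its group (13.34 to 14.13). The highest rosiglitazone aorta was at 14.19. On aorta arrays the brown fat gene Ucp1 lay between 15.0 and 17.5 and the adipocyte gene Adipoq between 13.0 and 15.4, and 10 or 11 of the 11 adipocyte genes measured were detected on each. On muscle arrays Ucp1 lay between 5.3 and 8.9 and Adipoq between 10.1 and 13.5. Of the 3 hepatocyte genes, between 0 and 2 were detected per array in either tissue. In RNA of whole tissue, fewer cells of a type and less RNA per cell cannot be told apart.

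The aorta of healthy replicate 1 stood apart. Its mean correlation with the other 2 healthy aortas was 0.876, the lowest of all arrays, against a median of 0.969. Its smooth muscle gene Myh11 was at 9.1, against 13.9 and 12.6 in the other healthy aortas and 12.7 to 15.4 in the 18 KK/Ay aortas, and the mean of its 11 adipocyte genes was 11.56, against 13.34 and 13.38. In the main fits, calls of the fatty acid synthesis genes that rest on healthy aorta are therefore given with and without it. Other results that rest on healthy aorta include this array and were not repeated without it. Among them are those of cell-type genes, of other pathway genes, of the order of groups and of fits with a covariate or slide block. The main aorta fit shares an estimate of the spread over the 7 groups. The p values and intervals of aorta comparisons without group G therefore also carry the spread of this array.

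**Figure D1:**
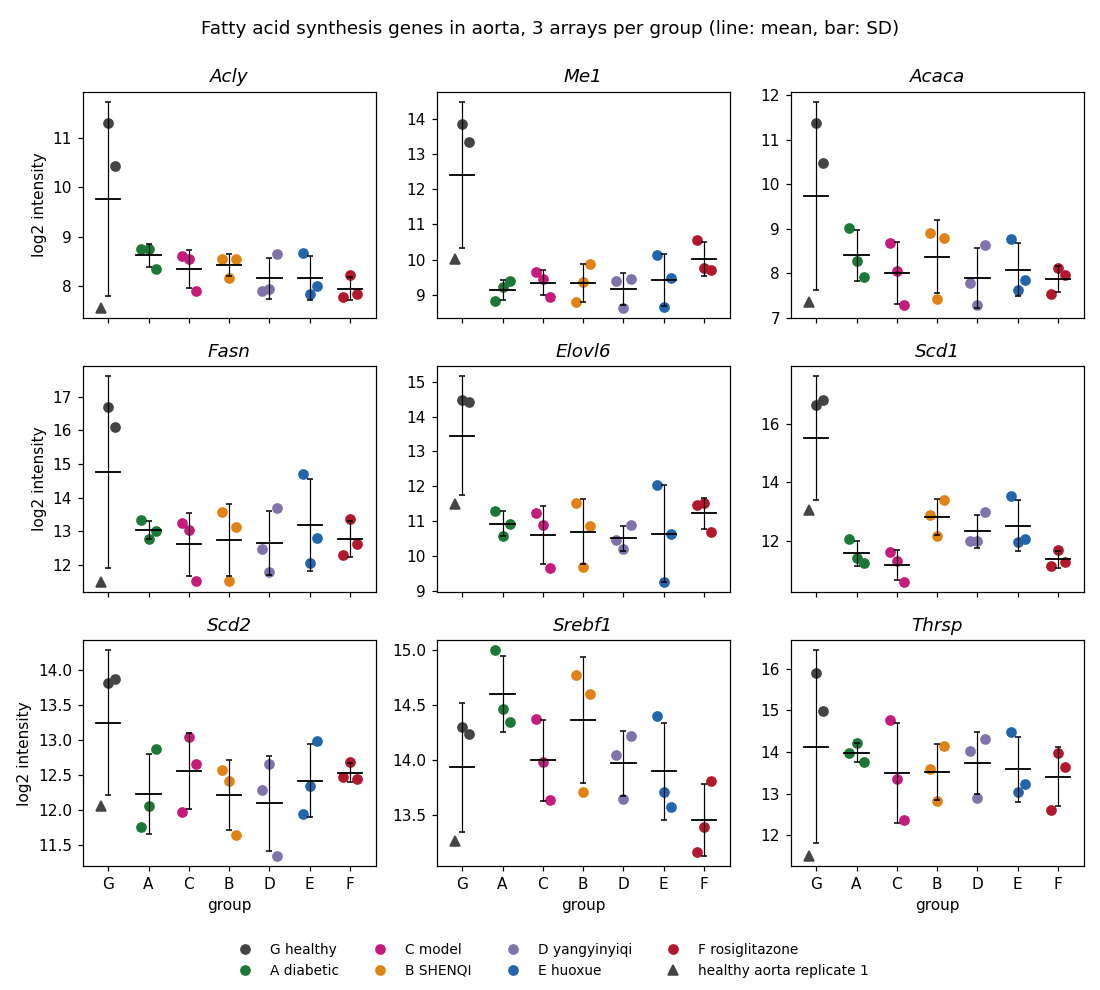
Log2 intensity of the 9 genes in aorta on each array (points, 3 per group, with the mean as a line and the SD as a bar) in groups G, A, C, B, D, E and F. Healthy replicates 2 and 3 lie above every KK/Ay aorta for Acly, Me1, Acaca, Fasn, Elovl6, Scd1, Scd2 and Thrsp, and healthy replicate 1, the triangle, lies apart from them.

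Promoters are shown for the genes called below for which the RefSeq table (build GRCm38.p6) held a promoter with a match to a searched motif. The table held promoters for 7 of the 9 genes, 10 in all. Each is 300 bases, 250 before and 50 after a transcription start. Capitals mark the letters CCAAT (the CCAAT box), and GGGCGG (the GC box), on either strand, where overlapping matches were each counted.

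Fasn, chr11:120824498-120824797, minus strand: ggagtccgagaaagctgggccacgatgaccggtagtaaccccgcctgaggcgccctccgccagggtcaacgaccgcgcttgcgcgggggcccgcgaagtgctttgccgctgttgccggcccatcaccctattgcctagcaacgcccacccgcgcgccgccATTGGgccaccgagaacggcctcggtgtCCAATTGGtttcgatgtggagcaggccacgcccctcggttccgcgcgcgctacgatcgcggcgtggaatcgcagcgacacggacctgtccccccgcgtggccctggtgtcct
Acly, chr11:100527951-100528250, minus strand: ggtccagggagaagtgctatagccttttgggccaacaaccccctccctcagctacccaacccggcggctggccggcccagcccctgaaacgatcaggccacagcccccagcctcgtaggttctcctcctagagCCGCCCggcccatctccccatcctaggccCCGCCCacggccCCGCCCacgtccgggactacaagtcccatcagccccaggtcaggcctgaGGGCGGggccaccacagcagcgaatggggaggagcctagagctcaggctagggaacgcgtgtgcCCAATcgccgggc
Me1, chr9:86695865-86696164, minus strand: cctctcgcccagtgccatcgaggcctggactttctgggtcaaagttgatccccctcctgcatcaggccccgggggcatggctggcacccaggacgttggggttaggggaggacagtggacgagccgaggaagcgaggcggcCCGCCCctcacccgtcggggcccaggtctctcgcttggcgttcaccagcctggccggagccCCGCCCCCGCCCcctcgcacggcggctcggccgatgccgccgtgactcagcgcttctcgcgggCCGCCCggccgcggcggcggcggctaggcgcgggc

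The Fasn promoter held 3 matches to the CCAAT box, the last 2 overlapping, and none to the GC box. The Acly promoter held 1 CCAAT box and 4 GC boxes, and the Me1 promoter shown 4 GC boxes and no CCAAT box. The table held a second Me1 promoter, at chr9:86687228-86687527 on the minus strand, with 1 CCAAT box and no GC box, which is not printed here. Of all 32851 promoters in the table, 37.4% held a CCAAT box and 35.7% a GC box. The E-box CACGTG (7.15% of all promoters) and the sterol element letters TCACNCCAC (1.24%) had no match in any of the 10 promoters, which says only that these letters are not in these windows.

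In healthy mice all 9 genes were higher in aorta than in skeletal muscle. In the fit of all 42 arrays, 30.5% of 16176 genes were called in this comparison. Thrsp differed by 3.99 on the log2 scale (SE 0.73, adjusted p = 7.4e-05), Elovl6 by 3.71, Scd1 by 3.44 and Fasn by 3.35, while Srebf1, by 1.26, and Me1, by 1.38 (adjusted p = 0.048), differed least. Without healthy aorta replicate 1 all 9 were again called, and the difference ran from 1.60 (Srebf1) to 5.30 (Thrsp). No slide held both healthy tissues, so slide and tissue cannot be told apart here.

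The comparison of KK/Ay with healthy aorta asks what separates the diabetic strain from the healthy one. In A vs G, Scd1 and Me1 fell, 2 of 9 genes, where 3.43% of all 15844 genes tested were called (1.91% lower). In C vs G, Scd1, Me1 and Elovl6 fell, 3 of 9, where 6.36% were called (3.11% lower). At an unadjusted p under 0.05, 4 of 9 passed in A vs G, where 18.6% of all genes did, and 5 of 9 in C vs G, where 24.2% did. Groups without overlap occurred for 4 of 9 in A vs G (18.1% of all genes) and 3 of 9 in C vs G (27.9%). In A vs G 3 of these were lower and Srebf1 was higher, and in C vs G all were lower. The median log2 fold change of the 9 was -1.33 in A vs G and -1.73 in C vs G, against 0.02 in both over all genes tested. Genes of other cell types were read beside these, and their part in the result was not tested. The 5 smooth muscle genes were all higher in KK/Ay aorta at an unadjusted p under 0.05, with a median log2 fold change of 1.87 in A vs G (range 1.59 to 2.48) and 2.47 in C vs G (2.00 to 3.17), of which Smtn in C vs G was called after adjustment. Their mean was 9.66 to 13.47 in group G, 13.34 to 14.13 in A and 14.15 to 14.54 in C. The 6 skeletal muscle genes had a median of 1.79 in A vs G and 0.08 in C vs G, and the 4 cardiac genes one of 1.21 and -0.78, with none of them called. The skeletal muscle mean was 8.12 to 12.66 in group G, 9.16 to 15.29 in A and 9.43 to 11.50 in C.

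Scd1, the main delta-9 desaturase of adipose tissue, had the largest difference. Its log2 intensity was 13.05, 16.64 and 16.82 in the healthy aortas, 12.06, 11.42 and 11.23 in group A and 11.62, 11.30 and 10.60 in group C. Every KK/Ay aorta of both groups lay below the lowest healthy one. The log2 fold change was -3.93 in A vs G (SE 0.73, adjusted p = 0.0073), or 15.3-fold lower, and -4.33 in C vs G (adjusted p = 0.0036), or 20.2-fold lower. Without healthy replicate 1 it was -5.16 and -5.56 (adjusted p = 2.1e-05 and 8.3e-06).

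Me1, which turns malate to pyruvate and yields NADPH, came next. It was at 10.01, 13.84 and 13.34 in healthy aorta, at 8.82, 9.21 and 9.38 in group A and at 9.64, 9.46 and 8.94 in group C. The groups did not overlap, and healthy replicate 1 lay closer to the KK/Ay aortas than to the other healthy ones. The log2 fold change was -3.26 in A vs G (SE 0.69, adjusted p = 0.016) and -3.05 in C vs G (adjusted p = 0.018), and both probes of the gene were called in both comparisons when each was fitted on its own, with log2 fold changes from -3.90 to -2.62. Without healthy replicate 1 the gene differed by -4.45 and -4.24.

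Elovl6, the elongase that takes palmitate to stearate, was at 11.49, 14.46 and 14.41 in healthy aorta and at 11.25, 10.90 and 9.67 in group C. The model aortas lay below all healthy ones. In C vs G it fell by 2.85 on the log2 scale (SE 0.75, adjusted p = 0.034), and its difference in A vs G, -2.52, did not pass (adjusted p = 0.078).

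Fasn, Acaca and Acly, the core of the pathway, were not called in aorta with all 3 healthy arrays and were called without healthy replicate 1. Fasn was at 11.50, 16.69 and 16.11 in healthy aorta, at 13.32, 12.78 and 13.02 in group A and at 13.25, 13.05 and 11.54 in group C. Healthy replicate 1 lay below every aorta of A and C, and healthy replicates 2 and 3 lay above all of them. The log2 fold change was -1.72 in A vs G with an interval from -3.92 to 0.48 (adjusted p = 0.40), and -2.15 in C vs G (adjusted p = 0.22). It averages 2 unequal probes, neither called on its own. Probe A_51_P321126 differed by -0.86 and -1.18 and probe A_52_P100252 by -2.58 and -3.12.

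Without that array, 6 of 9 genes were called in each comparison (Acaca, Acly, Elovl6, Fasn, Me1 and Scd1), where 2.63% of all genes were called in A vs G and 3.89% in C vs G. Fasn then differed by -3.36 in A vs G (adjusted p = 0.026) and by -3.78 in C vs G (adjusted p = 0.011). Acaca differed by -2.53 and -2.92 and Acly by -2.24 and -2.51. Leaving out other arrays worked the other way: Elovl6 and Me1 in C vs G missed the threshold without healthy replicate 3, or without model replicate 2 or 3 (adjusted p from 0.064 to 0.15), Elovl6 also without healthy replicate 2 (0.069), and Me1 in A vs G without healthy replicate 3 or diabetic replicate 1 or 2 (0.052 to 0.059). Scd1 was called whichever array was left out (highest adjusted p = 0.036).

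Scd2, Srebf1 and Thrsp were not called in aorta in either comparison, with or without healthy replicate 1. Scd2, the desaturase better known from brain and other tissues, differed by -1.03 in A vs G (adjusted p = 0.26) and by -0.69 in C vs G. Srebf1 lay in a narrow range, from 13.2 to 15.0 over the 21 aortas, and differed by 0.67 in A vs G (adjusted p = 0.30) and 0.06 in C vs G (adjusted p = 0.93). Without healthy replicate 1 its differences were 0.34 and -0.27. Thrsp differed by -0.14 and -0.63, with intervals that reached from -2.44 to 1.68. Without healthy replicate 1 the differences were -1.45 and -1.94 for Thrsp (adjusted p = 0.34 and 0.11) and -1.63 and -1.29 for Scd2 (adjusted p = 0.059 and 0.11).

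Slide 3 held 1 diabetic and 2 healthy aortas. Within it the diabetic value minus the healthy mean was -2.88 for Scd1, -2.85 for Me1, -1.65 for Elovl6, -1.21 for Scd2, -0.48 for Fasn and -0.25 for Acly, and it was 0.11 for Acaca, 0.74 for Thrsp and 1.25 for Srebf1. The healthy arrays of this slide include replicate 1. No slide held groups C and G together. With slide as a fixed block, A vs G gave -3.18 for Scd1 (adjusted p = 0.28) and -3.08 for Me1 (adjusted p = 0.23).

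**Figure D2:**
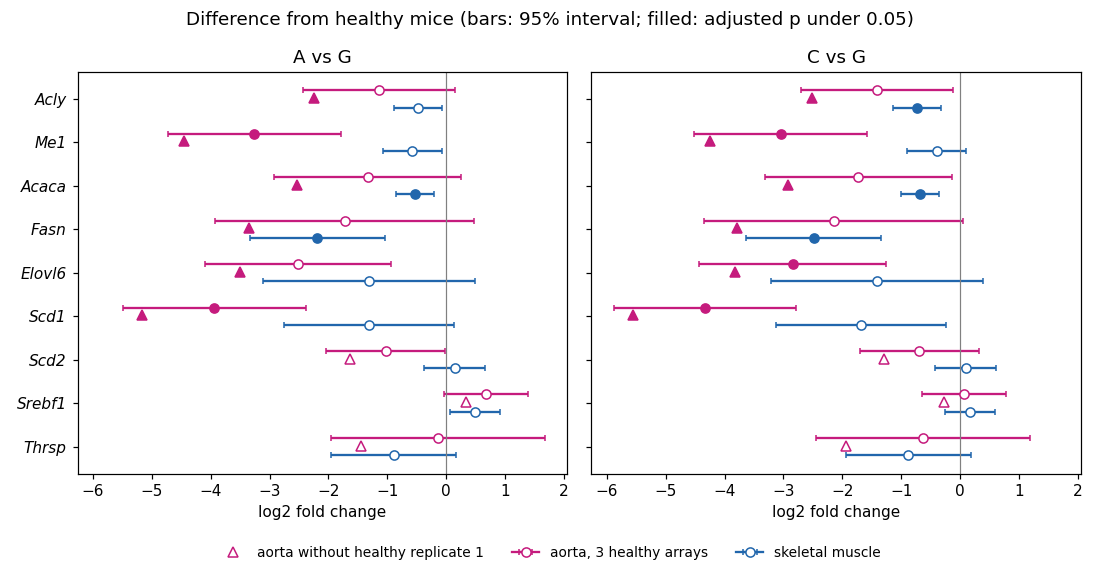
Log2 fold change of each gene in A vs G (left) and C vs G (right) in aorta (pink) and skeletal muscle (blue), with 95% intervals and filled points for adjusted p under 0.05. Triangles give aorta without healthy replicate 1, where 6 of 9 genes are filled.

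In skeletal muscle another set of genes passed. Fasn and Acaca fell in A vs G, 2 of 9, where 26.4% of all 14201 genes tested were called (10.8% lower), and Fasn, Acaca and Acly fell in C vs G, 3 of 9, where 24.8% were called (10.2% lower). At an unadjusted p under 0.05, 5 of 9 passed in A vs G against 38% of all genes, and 4 of 9 in C vs G against 36.7%. The shares called after adjustment lie near those of all genes. Groups without overlap occurred for 4 of 9 in both comparisons (30.6% and 30% of all genes). In A vs G 3 of these were lower and Scd2 was higher, and in C vs G all were lower. The median log2 fold change of the 9 was -0.58 in A vs G and -0.73 in C vs G, against 0.03 and 0.04 over all genes. Macrophage genes moved beside these: of 4 measured, Emr1, Lyz2 and Csf1r fell in both comparisons, Emr1 by 0.75 and 1.02, and their part in the result was not tested.

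Fasn was at 13.19, 10.65 and 10.40 in healthy muscle, at 8.82, 9.95 and 8.90 in group A and at 8.78, 9.37 and 8.64 in group C. Every diabetic and model muscle lay below the lowest healthy one, and healthy replicate 1 was far above the rest. The log2 fold change was -2.19 in A vs G (SE 0.54, adjusted p = 0.0069), or 4.56-fold lower, and -2.49 in C vs G (adjusted p = 0.0032), or 5.61-fold lower. Without healthy muscle replicate 1 it was -1.30 (adjusted p = 0.023) and -1.60 (adjusted p = 0.0085), so its size moved by over 1.5 times while the call stayed.

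Acaca was dim in muscle, at 7.76, 7.00 and 6.92 in group G, 6.54, 6.82 and 6.72 in A and 6.51, 6.53 and 6.60 in C. The groups did not overlap. It fell by 0.53 on the log2 scale in A vs G (adjusted p = 0.018) and by 0.68 in C vs G (adjusted p = 0.0044). The 4 probes of the gene were unequal: probe A_52_P318040 differed by -1.42 and -1.36, A_52_P23177 by -0.54 and -0.67, A_52_P595124, well above background on 21 of 21 muscle arrays, by -0.07 and -0.19 (adjusted p = 0.77 and 0.40), and A_51_P439426 was well above background on only 3 of 21 muscle arrays. The call in A vs G was lost without healthy replicate 1 (adjusted p = 0.062) or without diabetic replicate 1 (0.080).

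Acly was at 7.92, 7.00 and 6.98 in healthy muscle and at 6.50, 6.52 and 6.68 in group C, again without overlap. It fell in C vs G by 0.73 (adjusted p = 0.011). In A vs G the difference was -0.48 (adjusted p = 0.075), as diabetic replicate 2, at 7.17, lay above the lower healthy values. The values given for the gene average 2 probes, of which A_52_P373556 was well above background on 0 of 21 muscle arrays. The other, A_51_P261718, differed by -0.84 in A vs G (adjusted p = 0.049) and by -1.12 in C vs G (adjusted p = 0.012) on its own.

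Scd1, with the largest difference in aorta, differed in muscle by -1.32 in A vs G (adjusted p = 0.17) and by -1.68 in C vs G (adjusted p = 0.083), and was at 12.58, 11.99 and 11.64 in healthy muscle, above all 3 model muscles. Elovl6 ranged from 6.91 to 11.16 over the 21 muscles, with diabetic replicate 2 at 10.85 and the others of its group at 7.12 and 7.31, and was not called. Thrsp was highest in healthy replicate 1, and the 20 other muscles, between 8.64 and 9.95, all lay below it. Without healthy replicate 1 its differences were 0.04 and 0.06, against -0.89 and -0.88 with it, so for Thrsp that array decides the value. Scd2 and Srebf1 differed by 0.14 and 0.49 in A vs G (adjusted p = 0.71 and 0.083), and Srebf1 was called, higher by 0.67, without healthy replicate 1 (adjusted p = 0.028).

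No slide held healthy muscle together with muscle of A or C, so slide and group cannot be told apart there. With slide as a random block 0 of 9 genes were called in A vs G (Fasn -1.90, adjusted p = 0.095) and 2 of 9 in C vs G (Fasn -2.56, adjusted p = 0.015, and Acaca).

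**Figure D3:**
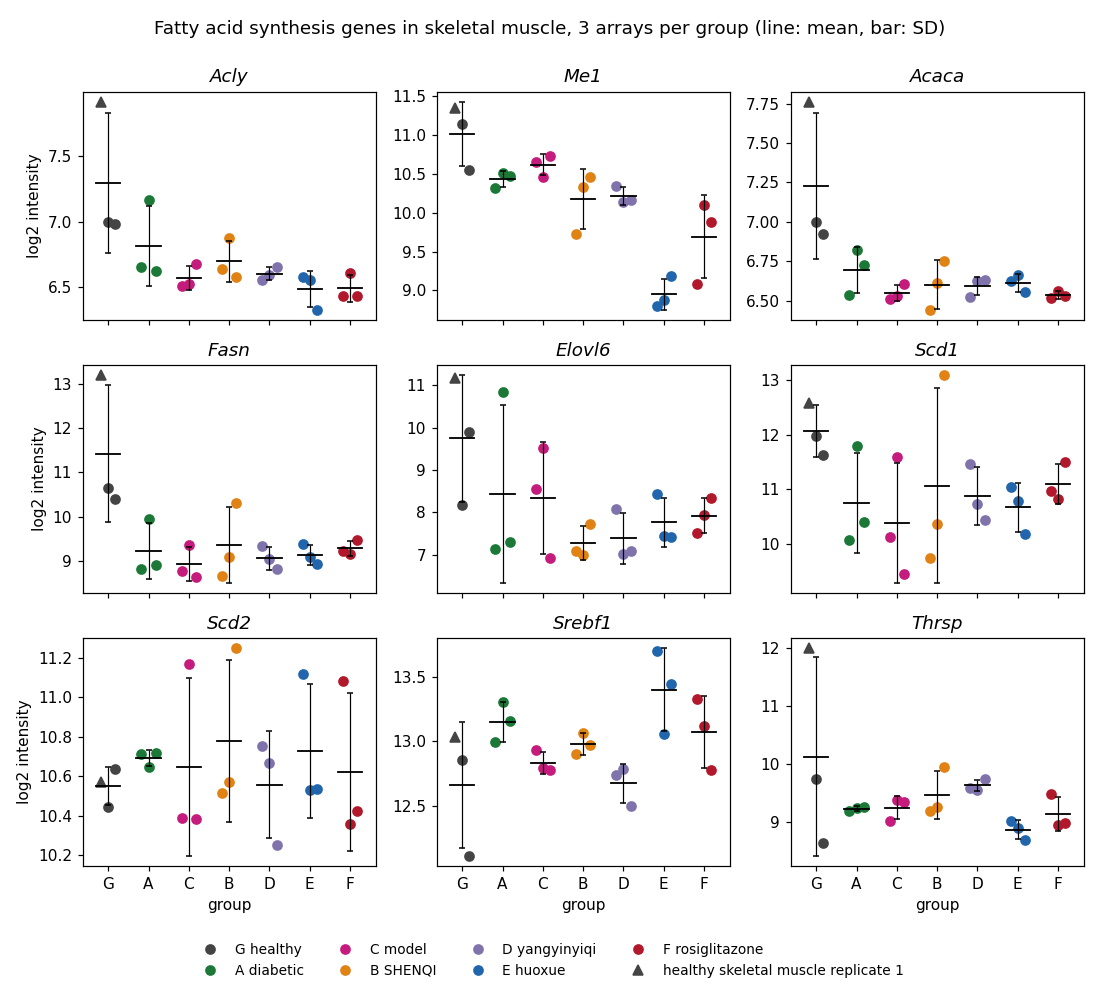
Log2 intensity of the 9 genes in skeletal muscle on each array (points, 3 per group, with the mean as a line and the SD as a bar). Fasn and Acaca of groups A and C lie below all 3 healthy muscles, Thrsp is high in healthy replicate 1 alone (triangle), and Me1 is lowest in groups E and F.

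The difference between the tissues was tested with an interaction term. It passed for Me1 in C vs G, with aorta minus muscle at -2.65 (SE 0.75, adjusted p = 0.046), and not for Me1 in A vs G (-2.68, adjusted p = 0.084) or for Scd1 (-2.62 and -2.65, adjusted p = 0.26 and 0.16). For Fasn, called in muscle and not in aorta, the interaction was 0.47 in A vs G and 0.34 in C vs G (adjusted p = 0.93 in both), so its calls in the 2 tissues were not shown to differ. Of the 16176 genes of that fit, 3.16% were called in C vs G and 0.89% in A vs G. Without healthy aorta replicate 1, Me1, Scd1, Acly and Acaca passed in both comparisons, with Me1 at -3.87 and -3.85, where 1.95% and 4.8% of all genes passed. Fasn, at -1.16 and -1.29, did not (adjusted p = 0.62 and 0.48).

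High-fat diet and L-NAME were added to KK/Ay mice in C vs A. None of the 9 genes was called in limma in either tissue, nor was any gene of the array (0% in aorta and 0% in muscle, with 0 of 9 at an unadjusted p under 0.05 against 1.79% and 3.7% of all genes). The log2 fold changes of the 9 ran from -0.61 (Srebf1) to 0.33 (Scd2) in aorta and from -0.37 (Scd1) to 0.19 (Me1) in muscle. The 95% intervals reached 2.20 to either side of the estimate for Fasn in aorta and 0.33 for Acaca in muscle, so differences within those bounds were not detectable in these fits. The bounds use the spread shared by the 7 groups of a tissue and not that of A and C alone. For Fasn in aorta the SD was 2.84 in group G, 0.27 in A and 0.94 in C. Srebf1 in muscle was the only one of the 9 whose groups did not overlap (12.78 to 12.93 in C, 12.99 to 13.30 in A), as 13.8% of all genes did in muscle, and 0 of 9 did so in aorta against 9.57%.

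Each treatment was compared with the model to see which genes it moved. In aorta no treatment moved a gene after adjustment: 0 of 9 were called in B, D, E and F vs C, as were 0% of all genes in each. At an unadjusted p under 0.05, Scd1 in B vs C was the only one of the 9 to pass in any of the 4, and the share of all genes that did so was 1.35% for SHENQI, 0.379% for yangyinyiqi, 0.77% for huoxue and 2.88% for rosiglitazone.

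Scd1 in aorta was at 12.89, 12.17 and 13.38 with SHENQI, at 11.99, 11.99 and 12.99 with its yangyinyiqi part and at 13.52, 11.96 and 12.08 with its huoxue part. With rosiglitazone it was at 11.14, 11.69 and 11.28, against 11.62, 11.30 and 10.60 in the untreated model. All 9 aortas of the herbal groups lay above all 3 model aortas, and the rosiglitazone aortas overlapped them. The model aortas were all on slide 8, where yangyinyiqi replicate 1 was the only treated array and lay 0.82 above their mean. No slide held model aortas together with SHENQI, huoxue or rosiglitazone aortas.

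The log2 fold change of Scd1 against the model was 1.64 for SHENQI (95% interval 0.09 to 3.19), 1.15 for yangyinyiqi (-0.39 to 2.70), 1.35 for huoxue (-0.20 to 2.90) and 0.20 for rosiglitazone (-1.35 to 1.75). These intervals use the spread shared by the 7 groups, where the SD of Scd1 was 2.12 in healthy aorta, 0.52 in the model and 0.61 with SHENQI. Every adjusted p was 1.0 in limma. Groups without overlap occurred for 6.69% of all genes with SHENQI, 5.83% with yangyinyiqi, 7.43% with huoxue and 15.3% with rosiglitazone. The 3 herbal comparisons use the same 3 model aortas, and without model replicate 3 or SHENQI replicate 3 the SHENQI value was 1.35 and 1.36 and no longer passed at an unadjusted p under 0.05. The adipocyte mean was 12.43 to 12.82 with SHENQI and 11.42 to 12.79 in the model, and with that mean as a covariate the value was 0.99 and did not pass either. The group mean of Scd1 with SHENQI, 12.81 ± 0.61 (SD, n = 3), stayed below healthy aorta, 15.51 ± 2.12.

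Among the 8 other genes, only Me1 with rosiglitazone had aortas that did not overlap the model's. It was at 10.56, 9.77 and 9.72, against 9.64, 9.46 and 8.94, a log2 fold change of 0.67 (interval -0.79 to 2.13). Fasn in the treated aortas lay between 11.53 (SHENQI) and 14.69 (huoxue), a range that held all 3 model values.

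In muscle the herbal compound and its yangyinyiqi part called none of the 9 genes (0% of all genes in both comparisons in limma, with 0 of 9 at an unadjusted p under 0.05 against 1.22% and 1.18% of all genes), and the huoxue part and rosiglitazone called Me1. With huoxue 1 of 9 was called, where 17.7% of all genes were (9.92% lower), and with rosiglitazone 1 of 9, where 5.51% were (3.6% lower). At an unadjusted p under 0.05, 2 of 9 passed with huoxue (Me1 and Srebf1) against 32.6% of all genes and 1 of 9 with rosiglitazone against 21.6%. Me1 was at 10.66, 10.46 and 10.73 in model muscle, at 8.79, 8.87 and 9.18 with huoxue and at 9.08, 10.10 and 9.88 with rosiglitazone. Neither treated group overlapped the model, as was so for 49.1% of all genes with huoxue and 36.2% with rosiglitazone. The gene fell by 1.67 on the log2 scale with huoxue (SE 0.24, adjusted p = 1.7e-04) and by 0.93 with rosiglitazone (adjusted p = 0.030). The rosiglitazone call was lost without any 1 of the 3 model muscles or without rosiglitazone replicate 1 or 3 (adjusted p from 0.053 to 0.13).

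The 2 probes of Me1 did not move together in muscle, and both calls came from 1 of them. The first 30 bases of each 60-base probe, as the array files give them, show that they read different stretches of the gene. In mm9 coordinates, A_51_P186601 lies at chr9:86480552-86480611 and A_51_P266861 at chr9:86475291-86475347, both on the minus strand, and the exon or untranslated region they fall in was not analysed here.

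A_51_P186601: ttgaataccattcgaggcgtttcgttgaaa
A_51_P266861: attaatttactggacacgttgataatggca

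Probe A_51_P186601 was at 9.80, 9.52 and 10.08 in model muscle, at 5.88, 6.10 and 6.88 with huoxue, where it was well above background on 1 of 3 arrays, and at 6.82, 8.44 and 8.25 with rosiglitazone. Fitted on its own over all probes it differed by -3.52 in E vs C (adjusted p = 1.5e-05) and by -1.96 in F vs C (adjusted p = 0.0062), and it also passed in A vs G (-1.37, adjusted p = 0.017). With only 1 of 3 huoxue arrays well above background, the value in E vs C is not an exact size. Probe A_51_P266861 lay between 11.38 and 11.51 in model muscle, between 11.47 and 11.71 with huoxue and between 11.3 and 11.8 with rosiglitazone, and differed by 0.18 and 0.11 (adjusted p = 0.50 and 0.74). In aorta both probes were lower in A and C than in G, as given above. All 3 huoxue muscles and rosiglitazone replicate 1 were hybridised on slide 1, which had the fewest probes above background. Rosiglitazone replicates 2 and 3 were on slide 2 and the model muscles on slides 5 and 6. No slide held model muscle with either treated group, so slide and treatment cannot be told apart for huoxue or rosiglitazone. Of the 6 skeletal muscle genes, 3 were called lower in E vs C, Myh4 by 0.99, Mylpf by 0.75 and Myh1 by 0.54, against 9.92% of all genes. In F vs C 1 of the 6 was, Myh4 by 0.51, against 3.6%. In each comparison 1 of the 6 had a log2 fold change above 0, which was not called. The part of these genes in the Me1 result was not tested. With slide as a random block Me1 differed by -1.42 in E vs C (adjusted p = 0.0048) and by -0.98 in F vs C (adjusted p = 0.072). The rosiglitazone muscles of slide 2, replicates 2 and 3, read 8.44 and 8.25 on probe A_51_P186601, and the healthy muscles of the same slide, replicates 1 and 2, read 10.95 and 10.80. These mice also differ in strain, diet and L-NAME, so the values do not compare rosiglitazone with the model.

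**Figure D4:**
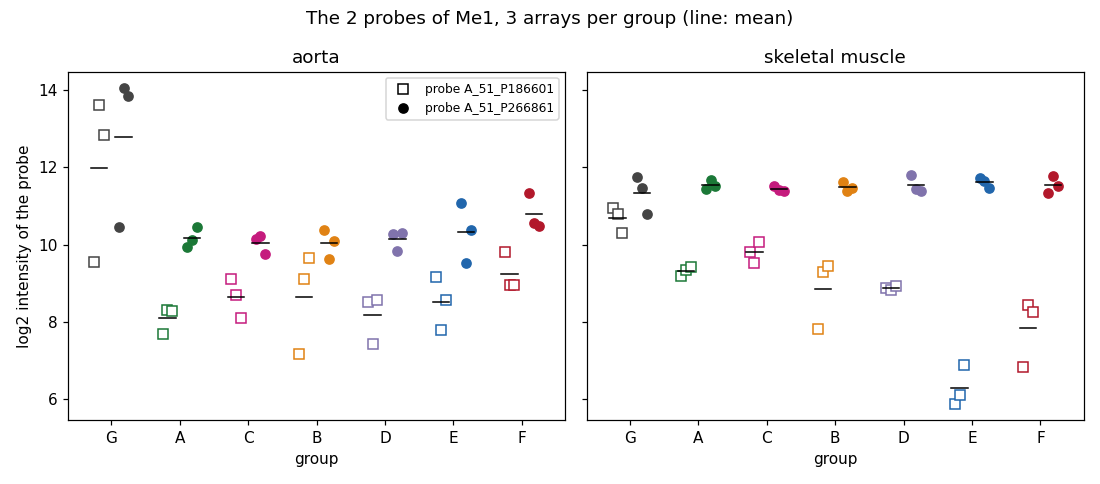
Log2 intensity of the 2 Me1 probes on each array of aorta (left) and skeletal muscle (right), with the group mean as a line. In muscle the squares (A_51_P186601) run from 10.95 in healthy mice down to 5.88 with huoxue, while the circles (A_51_P266861) stay between 10.8 and 11.8.

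Srebf1 in muscle was at 13.70, 13.06 and 13.45 with huoxue, above model muscle at 12.93, 12.79 and 12.78, a log2 fold change of 0.57 that did not pass (adjusted p = 0.060) and that passed without huoxue replicate 2. Me1 in muscle was also below the model without overlap with SHENQI (9.73 to 10.45) and yangyinyiqi (10.14 to 10.34), with differences of -0.45 and -0.40 (adjusted p = 1.0 in both), and Thrsp was above the model without overlap with yangyinyiqi (9.56 to 9.75 against 9.02 to 9.38, a difference of 0.38, adjusted p = 1.0). Groups without overlap occurred for 7.85% of all genes with SHENQI and 8.72% with yangyinyiqi. The effects of huoxue and rosiglitazone on Me1 were not shown to differ between the tissues (interaction 1.75 and 1.60, SE 0.75 in both, adjusted p = 0.39 and 0.53). Without healthy aorta replicate 1 these interactions kept their size, with an SE of 0.45, and again did not pass in limma (adjusted p = 0.11 and 0.31).

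By group mean, healthy mice ranked first for 8 of 9 genes in aorta, all but Srebf1, which was highest in group A, and for 7 of 9 in muscle, all but Scd2 and Srebf1. Of the 54 pairs of groups next to each other in these orders, all 54 overlapped in aorta and 51 in muscle. The 3 that did not were healthy muscle above the next group for Fasn, Acaca and Scd1.

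The other genes of the pathway were read from lists of enzymes and regulators. Their counts stand against the shares of all genes called, 3.43% in A vs G and 6.36% in C vs G in aorta and 26.4% and 24.8% in muscle. Of the 12 measured genes that supply acetyl-CoA and NADPH, 2 fell and 0 rose in A vs G in aorta and 4 fell and 0 rose in C vs G, with medians of -0.70 and -0.93 on the log2 scale. Pgd and G6pdx, the NADPH-producing dehydrogenases of the pentose phosphate pathway, fell in both, with log2 fold changes of -2.45 and -2.60 for Pgd and -1.67 and -1.75 for G6pdx, and the acetyl-CoA synthetases Acss1 and Acss2 fell in C vs G, with log2 fold changes of -1.497 and -1.46. In muscle 2 rose and 2 fell in A vs G: Pgd fell by 0.72 and Acss1 by 0.52, while Pdha1, of pyruvate dehydrogenase, rose by 0.33 and Taldo1, transaldolase, by 0.34. In C vs G muscle Pgd fell by 0.74, Acss1 by 0.55 and Pdha1 rose by 0.51.

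Of the 17 measured carboxylase, elongase and desaturase genes in aorta, Elovl3 and Ptplb fell in A vs G, and Elovl3, Ptplb and Hsd17b12 in C vs G, with none rising and medians of -0.30 and -0.34. Elovl3, an elongase of very long chains that is abundant in brown fat, was called in both (adjusted p = 3.2e-04 and 5.9e-04), with a mean of 10.74 in group G, 5.52 in A and 5.99 in C. Only 1 of 3 arrays of group A and 2 of 3 of group C measured it above background, against 3 of 3 in G, so no fold is given. In muscle, of 16 measured, Hsd17b12, the reductase of the elongation cycle, fell by 0.55 and 0.62, Mcat, of mitochondrial fatty acid synthesis, rose by 0.48 and 0.52, and Mlycd, which breaks down malonyl-CoA, rose by 0.38 in A vs G.

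Among 15 measured regulators, Usf1, an E-box factor, rose in both tissues, by 0.97 and 1.15 in aorta and by 1.08 and 0.84 in muscle, while Mlx, the partner of the carbohydrate response factor, fell by 0.52 and 0.61 in aorta. In muscle Mid1ip1, a relative of Thrsp that activates acetyl-CoA carboxylase, rose by 1.58 in A vs G and 1.55 in C vs G, Ppargc1b rose by 0.76 and 0.81, Mbtps1, a protease that releases active SREBP, rose by 0.37 and 0.43, and Nr1h3, which encodes LXRα, fell by 0.41 and 0.46. The medians of the 15 were 0.07 and 0.01 in aorta and 0.02 and -0.0036 in muscle. Of 6 genes of glycerolipid assembly, Lpin1, a phosphatidate phosphatase, fell by 1.44 and 1.45 in muscle and by 1.97 in aorta in C vs G, Gpam rose in muscle by 0.69 and 0.59, and Pnpla3, above background on 2 of 3 healthy muscles, rose by 1.11 in A vs G. No gene of these 4 lists was called in C vs A or in B or D vs C in either tissue, nor in E or F vs C in aorta. In E vs C muscle 17.7% of all genes were called and in F vs C 5.51%. There Taldo1 fell by 0.90 with huoxue and by 0.61 with rosiglitazone and Me3, mitochondrial malic enzyme, rose by 0.31 and 0.39, and in E vs C Pdha1 fell by 0.39, Mlycd by 0.53 and Mbtps1 by 0.43 and Tecr rose by 0.60.

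Genes of fat cells moved beside these results and did so unevenly. The mean of the 11 adipocyte genes lay between 11.56 and 13.38 in healthy aorta, 12.56 and 12.83 in group A and 11.42 and 12.79 in group C. Of the 11, 1 rose (Lep) and 1 fell (Retn) in A vs G and 1 rose and 2 fell (Retn and Adig) in C vs G, against 3.43% and 6.36% of all genes, and all 11 were detected on every aorta of A and C. In muscle that mean was 10.54 to 11.84 in group G, 10.12 to 10.56 in A and 9.72 to 10.79 in C, with Cfd, Retn and Plin4 lower and Lep higher in both comparisons, 4 of 11 against 26.4% and 24.8% of all genes. Of the 5 brown adipocyte genes, Elovl3, also in the elongase list, alone fell in aorta, and of the 4 tested in muscle Ucp1 and Dio2 rose in both comparisons and Cidea in A vs G.

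With the mean of the adipocyte list as a covariate, the log2 fold change of Scd1 in aorta was -3.81 in A vs G and -3.51 in C vs G (adjusted p = 1.7e-04 and 6.3e-04), and that of Me1 was -3.17 and -2.50 (adjusted p = 0.0044 and 0.020). In muscle that of Fasn was -1.40 and -1.51 (adjusted p = 0.013 in both), against -2.19 and -2.49 without it, and the calls of Acaca in A vs G and Acly in C vs G were lost (adjusted p = 0.073 and 0.066). The adipocyte mean holds no brown adipocyte gene and averages genes that moved in opposite directions in A vs G, such as Lep and Retn. In aorta its fit also includes healthy replicate 1. The part of fat in these values was not tested.

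Across the 18 KK/Ay aortas the genes followed the adipocyte genes to different degrees. Pearson's r with the adipocyte mean was 0.83 for Thrsp, 0.74 for Srebf1, 0.73 for Acaca, 0.70 for Acly and 0.67 for Fasn. It was 0.60 for Scd1, 0.43 for Elovl6, -0.06 for Me1 and -0.51 for Scd2. Across the 18 KK/Ay muscles it was 0.87 for Scd1, 0.82 for Fasn, 0.71 for Scd2, 0.57 for Thrsp and 0.42 for Acaca. There it was 0.15 for Elovl6, 0.07 for Srebf1, -0.06 for Acly and -0.10 for Me1. These r describe arrays that share slides and groups and carry no test.

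**Figure D5:**
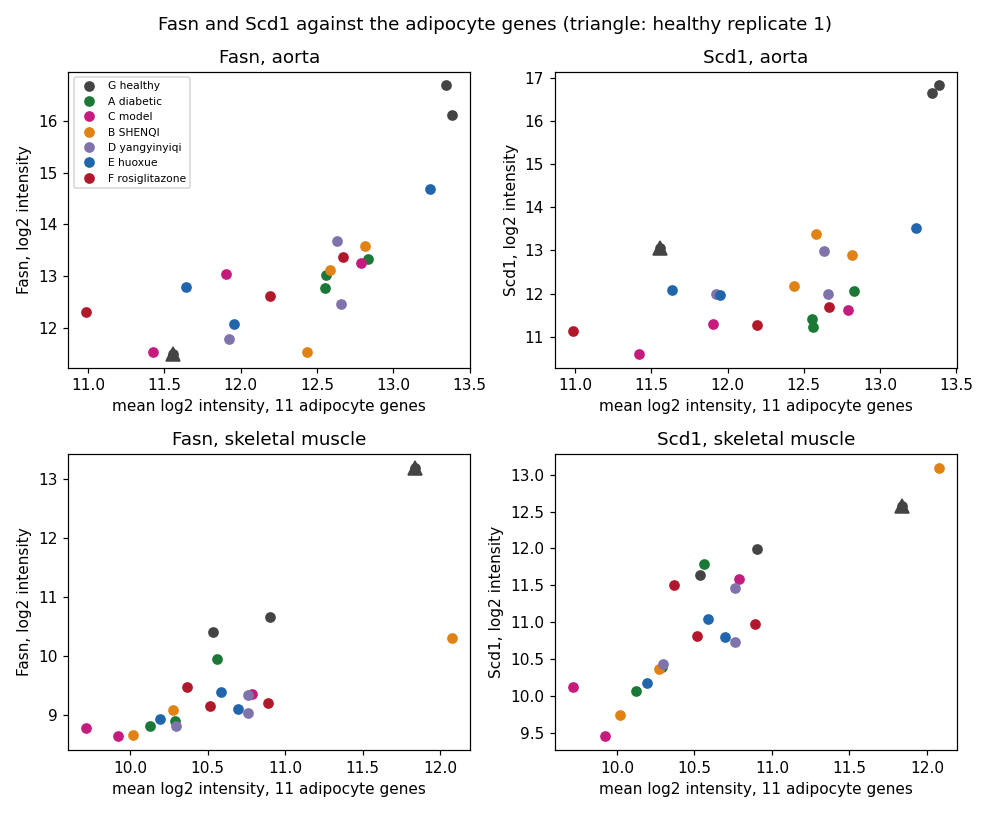
Log2 intensity of Fasn (left) and Scd1 (right) against the mean of 11 adipocyte genes on the 21 arrays of aorta (top) and of skeletal muscle (bottom), coloured by group, with healthy replicate 1 as a triangle. Healthy aortas 2 and 3 lie top right, at adipocyte means of 13.34 and 13.38, and SHENQI muscle replicate 3 has the highest adipocyte mean of the muscles and Scd1 at 13.10.

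The genes most like Fasn were found by Pearson's r over the 21 arrays of a tissue, among 15786 genes in aorta and 14175 in muscle that are not among the 9. In aorta they were Slc2a5 (the fructose transporter, r = 0.96), Mmab (0.95), Atp4b (0.95), Impa2 (0.95) and Acot11 (0.94), and over the 18 KK/Ay aortas their r lay between 0.83 and 0.91. Acaca, at 0.95, stood as high, and Scd2, at 0.45, was the least like Fasn of the 9. In muscle they were Lrmp (0.95), Retn (the adipokine resistin, 0.93), Pcx (pyruvate carboxylase, 0.93), Myo1g (0.93) and Prc1 (0.92), whose r over the 18 KK/Ay muscles was 0.56 to 0.84. Within KK/Ay muscle Scd1 was closest to Fasn among the 9 (r = 0.96) and Me1 was not (0.03).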

How the data were processed

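Total RNA of aorta and skeletal muscle was labelled by the authors with 1 dye and hybridised to 42 Agilent arrays on 11 slides. The deposited scanner output gives, for 45018 spots (1639 controls), the median intensity of spot and local background, the processed signal of Feature Extraction 10.7 and quality flags. A second deposited table holds log2 values of 41267 probes, with a median of 5.36 on each array, and ranks probes as the processed signal does. Groups were taken from the sample labels.

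Intensities were corrected with normexp (offset 0), put on the log2 scale and quantile normalised over the 42 arrays. Control spots were left out, irregular spots were set to missing, and spots of a probe and probes of a gene symbol were averaged. Normexp compresses differences of dim probes. A gene was tested in a tissue if the 3 arrays of some group all read a probe of it well above background (15844 in aorta, 14201 in muscle). Each tissue was fitted with lmFit and eBayes of limma 3.58.1 on its 21 arrays with 7 group means, in R 4.3.3 with the package data.table (version 1.17.8), with Benjamini-Hochberg adjustment over all genes tested. Tissues were compared in a fit of all 42 arrays. The fit was tested on simulated data. Correlations were computed in R, and Python 3.11.15 (pandas 2.3.3, numpy 2.4.6, matplotlib 3.10.9) served for sequences and figures.

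The 9 members and all lists were chosen with earlier results of these data known. Named were all 9 members, of the other lists the genes that passed, at most 6 per list and comparison, and in each tissue the 5 genes most like Fasn. Fits of scan day and of single probes, and the correlations over the KK/Ay arrays alone, were added after the values were seen. So were the interaction and tissue fits without healthy aorta replicate 1. Replicate numbers are shared between groups in the labels, but same-numbered arrays did not deviate together (correlation from -0.56 to 0.62, above 0.1 for every pair in 0 of 14 comparisons), so they were not taken as pairs.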

Additional observations from a re-analysis of the deposited data

Results flagged for a closer look

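The change of Me1 in C vs G differed between the tissues. The interaction, aorta minus muscle, was -2.65 (SE 0.75, adjusted p = 0.046 in limma over all 42 arrays): the log2 fold change of model against healthy was -3.05 in aorta and -0.40 in muscle, where it was not called. Without healthy aorta replicate 1, an array that stood apart, the interaction was -3.85 (adjusted p = 1.3e-05). In muscle the 2 probes of Me1 differed, with -0.89 for A_51_P186601 and 0.10 for A_51_P266861, and in aorta with -3.36 and -2.74.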

How the results depend on the processing

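The number of the 9 genes called was 0 under every alternative run for diet with L-NAME, SHENQI and yangyinyiqi in both tissues and for huoxue and rosiglitazone in aorta. Elsewhere it moved. In A vs G it was 2 in aorta and 0 with 12 arrays and a tissue term, with the 6 arrays of the groups compared, or with slide as a fixed block, and 2 in muscle and 0 with those 12 or 6 arrays, all 42 arrays in a fit, scan day as a block or slide as a random block, and 1 with the adipocyte covariate. In C vs G it was 3 in aorta, 1 with 12 arrays, 0 with 6, 2 with scan day or slide as a random block and 5 with all 42, and 3 in muscle, 2 with slide as a random block, the adipocyte covariate or 75th-percentile scaling, 1 with 12 arrays and 0 with 6, with 42 or with scan day. In E vs C muscle it was 1, 0 with 12 or 42 arrays or with the brightest probe, and 2 with 6 arrays, the authors' value table, 75th-percentile scaling of the processed signal, scan day or the replicate block. In F vs C muscle it was 1, and 0 with 12, 6 or 42 arrays, the brightest probe or slide as a random block. Leaving out 1 array at a time gave counts of 1 to 6 for both comparisons with healthy aorta and, in muscle, of 1 to 5 in A vs G, 3 to 4 in C vs G, 1 to 2 for huoxue and 0 to 1 for rosiglitazone. The brightest probe turned the sign of Me1 in muscle, to 0.18 for huoxue and 0.11 for rosiglitazone, since it is the probe that did not move. The replicate block changed no call of a gene named as called, and added Srebf1 in E vs C muscle. For these counts the cause was not tested. Slide as a fixed block could be fitted only in A vs G, D, E and F vs C in aorta and in C vs A, B and D vs C in muscle. With 75th-percentile scaling the median log2 fold change of all genes in muscle was 0.17 in A vs G, 0.13 for the model against healthy mice and 0.11 for huoxue. Acaca, dim in muscle, moved with the processing: its log2 fold change in C vs G muscle, -0.68, was -0.46 with an offset of 50 and -1.36 in the authors' table. Over all genes, the number called in A vs G aorta was 544 and became 21 with 6 arrays, 46 with slide as a fixed block, 1033 with the adipocyte covariate and 1942 with 42 arrays, and in C vs G aorta 1008 became 40 with 6 arrays, 334 with scan day, 583 with slide as a random block, 1838 with the covariate and 2997 with 42 arrays. In muscle A vs G gave 3750, and 563 with 6 arrays, 641 with 12, 1279 with 42, 1684 with slide as a random block and 1793 with scan day, and C vs G gave 3528, and 432, 793 and 1099 with 6, 12 and 42 arrays and 1851 with scan day. E vs C gave 2516, and 0, 687, 712, 4089 and 4179 with 12 arrays, 42 arrays, slide as a random block, scan day and 6 arrays. F vs C gave 782, and 1, 15, 1185 and 1199 with 12 arrays, 42 arrays, the brightest probe and 6 arrays, and 0.753% of genes with slide as a random block, against 5.51%.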
